A study of Glycine max with 24 samples.

Results

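Of the 57105 gene IDs counted in soybean (Glycine max) leaves and roots, 83 rose at least 3-fold in leaves after 6 h of 150 mM NaCl in both genotypes of the study, while their mean level in roots stayed between 0.67 and 1.5 times the untreated level in both. These 83 genes, called members here, were picked by those ratios of mean CPM (a gene's count divided by the total gene count of its library and scaled to a common total, the usual counts-per-million unit), with 0.5 CPM added to each mean. They were 13.5% of the 614 IDs that met the leaf limit in both genotypes. Among the others, 432 were above the root band and 16 below it in both genotypes, and 83 had another root pattern. The NaCl changes in leaf and root therefore chose the members. They are given as a description, and where calls of a test on them are counted, nothing is read from the count.

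Transgenic soybean that overexpresses GmNFYA, a protein of the NF-YA family, was set against the wild type, the cultivar Jack. Leaves and roots were taken from untreated plants (0 h) or after 6 h of 150 mM NaCl, which gave 8 groups of 3 libraries. Neither the promoter that drives the transgene, nor the number of transgenic lines, nor plant age is given in the sources used here, and the series title speaks of seeds although every sample is labelled leaf or root. No untreated group at 6 h is labelled, so that NaCl and the time of harvest cannot be told apart. Replicates are numbered but not said to be separate plants, so that p-values measure the spread between libraries, which may be technical. In bulk samples, fewer cells of a type and less RNA per cell cannot be told apart.

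Roots meet salt in the soil directly. Leaves receive it later, as a drop in water supply and as ions carried up in the transpiration stream, and abscisic acid, made in both organs, closes stomata and switches on dehydration genes. NF-YA is the subunit of the trimeric NF-Y complex that contacts the CCAAT box in promoters, and NF-YA genes of several plant species are known for roles in drought and salt responses. Names and functions could not be attached to the gene IDs, so the members are given by their number, which carries the prefix GLYMA_ in the leaf table and Glyma. in the root table, and no role is assigned to any of them.

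Libraries held 17696429 to 21053889 gene-assigned reads in leaf and 17005570 to 23459341 in root. The share of reads aligned to more than 1 place, which count for no gene, was 4.87 to 9.29% in leaf, highest in GmNFYA NaCl replicate 3, and 5.19 to 10.3% in root, where the untreated Jack libraries had 9.64 ± 0.59% (SD, n = 3) and the untreated GmNFYA libraries 5.53 ± 0.34% (SD, n = 3). The organ labels could be checked only with 3 IDs recalled from published work as leaf markers and not checked against an annotation, whose summed level was 4697 to 13846 CPM in leaf libraries and 7.64 to 54.6 CPM in root libraries. Of 7 further IDs recalled as circadian clock genes and 1 recalled as a salt tolerance gene, 0 were members; the leaf ratios of the 7 ran from 0.472 to 1.07 in Jack and from 0.632 to 1.16 in GmNFYA, and the other ID had leaf ratios of 0.682 in Jack and 0.468 in GmNFYA.

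In leaves, the members went from a median of 2.82 CPM untreated to 19.5 CPM with NaCl, each taken as the mean over 6 libraries. Their levels with NaCl ran from 3 to 4623 CPM, with 13 members at 100 CPM or more and 29 below 10 CPM. The median ratio was 4.39 in Jack, with a range of 3.02 to 46.4, and 5.26 in GmNFYA, with a range of 3.04 to 70.2. Both ratios reached 4 for 46 members and 8 for 10. All 3 NaCl libraries lay above all 3 untreated libraries for each of the 83 members in both genotypes, against 25.8% of all IDs tested in Jack leaves and 30.3% in GmNFYA leaves, a count from which nothing is read because the rule used these changes. The quasi-likelihood test of edgeR called 82 members higher with NaCl in Jack leaves (17.8% of all IDs tested) and 83 in GmNFYA leaves (17.8%), under the same reservation.

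**Figure D1:**
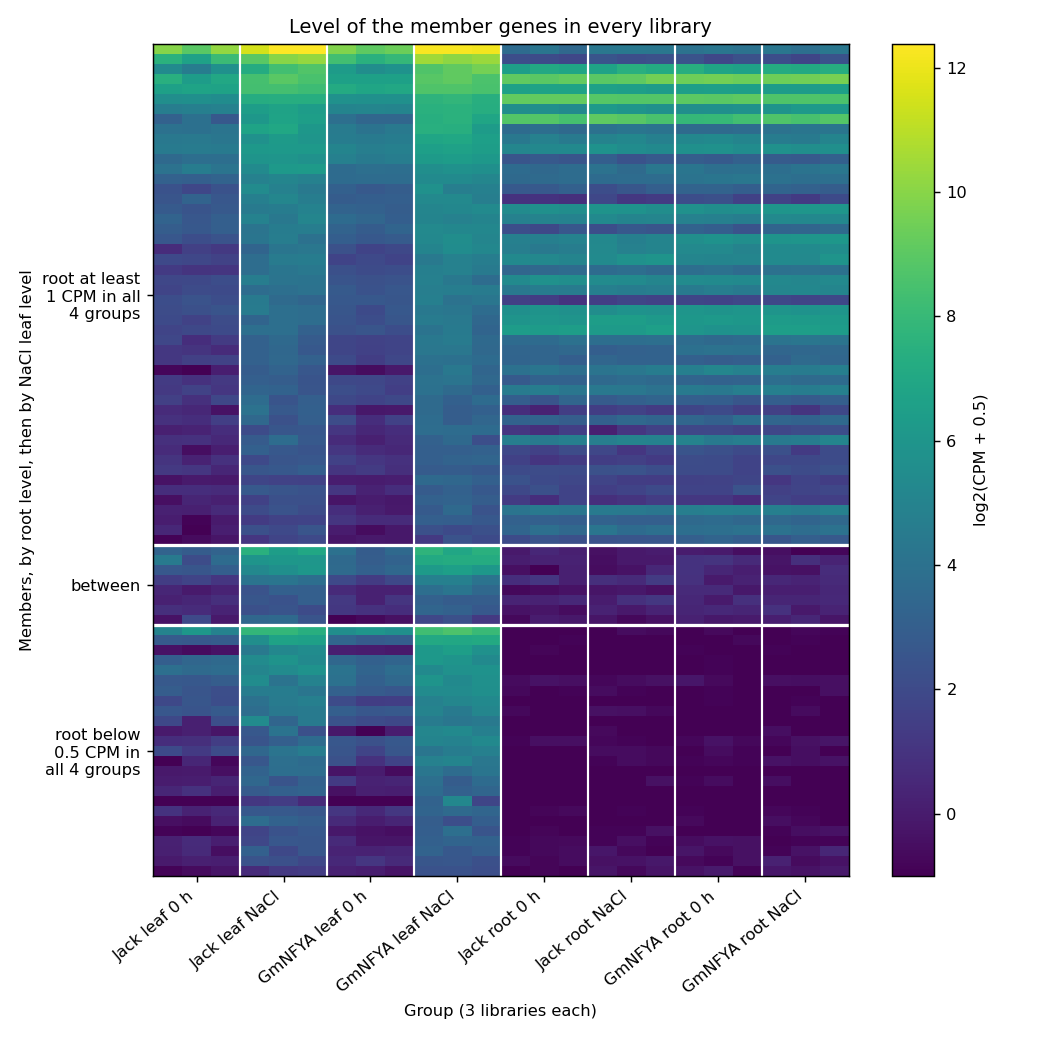
Level of the 83 members as log2(CPM + 0.5), on a colour scale, in each of the 24 libraries (columns, 3 per group), with the members (rows) split by their root level and ordered by their level in NaCl leaves. The leaf columns brighten with NaCl in both genotypes, and the root columns range from uniformly bright for some of the 50 members in the upper block to dark for the 25 members in the lower block.

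The member with the highest level in NaCl leaves was 06G295700. Its level in Jack leaves was 976, 492 and 1180 CPM untreated and 2954, 5331 and 5240 CPM with NaCl. In GmNFYA leaves it was 934, 541 and 675 CPM untreated and 4916, 4825 and 4471 CPM with NaCl. The treated and untreated libraries did not overlap, and the lowest treated value was that of Jack replicate 1. In roots the same gene was at 11.2 to 17.8 CPM in untreated Jack and 19.4 to 19.9 CPM with NaCl, and at 15.8 to 18.6 and 14.3 to 19.4 CPM in GmNFYA. Its root level was thus low but not nil, and the CPM pooled over the 3 NaCl libraries was 230-fold higher in Jack leaves than in Jack roots.

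The next highest member was 12G109800. It was at 183, 101 and 277 CPM in untreated Jack leaves and at 502, 1035 and 1240 CPM with NaCl. In GmNFYA leaves it was at 320, 180 and 240 CPM untreated and at 1424, 1105 and 1342 CPM with NaCl. In roots its 12 values lay between 2.98 and 5.12 CPM. Jack NaCl replicate 1 was again the lowest treated leaf library.

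The largest ratios common to both genotypes belonged to 07G056800. It was at 0.285, 0.16 and 0.292 CPM in untreated Jack leaves and at 20.8, 36.5 and 45.1 CPM with NaCl. In GmNFYA leaves it was at 0.603, 0.509 and 0.454 CPM untreated and at 70.5, 90.3 and 53 CPM with NaCl. The pooled CPM rose 136-fold in Jack and 135-fold in GmNFYA, more than the ratios of 46.4 and 70.2 show, since the 0.5 CPM added by the rule weighs on a gene this low when untreated. Over the 12 root libraries it had 3 counts in all, so that a change in root was not detectable at this depth.

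The next largest was 07G144100. In Jack leaves it was at 9.21, 7.04 and 8.96 CPM untreated and at 180, 86.8 and 124 CPM with NaCl. In GmNFYA leaves it was at 15.6, 6.89 and 11.2 CPM untreated and at 207, 122 and 177 CPM with NaCl. Root values ran from 0 to 0.882 CPM. At such levels its root ratios of 0.786 in Jack and 0.681 in GmNFYA rest mainly on the added 0.5 CPM, and without it the pooled CPM with NaCl was 0.611 and 0.279 times the untreated one.

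**Figure D2:**
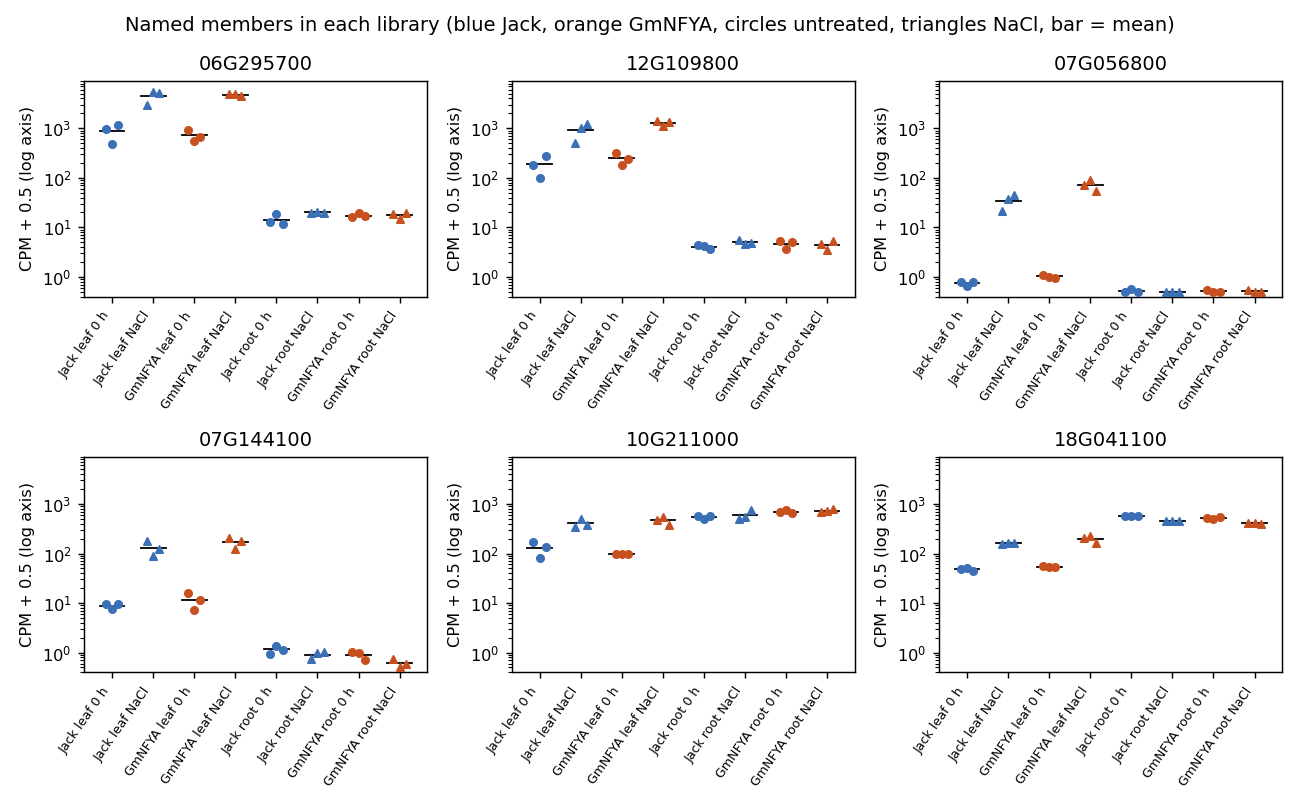
CPM + 0.5 on a common log axis for 6 named members in every library, with Jack in blue, GmNFYA in orange, circles for untreated and triangles for NaCl libraries, and a bar for the mean of 3. In all 6 the NaCl leaf libraries lie above the untreated ones, whereas the root values range from no more than 1 count per library (07G056800) to levels above the NaCl leaves (18G041100).

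The members fell into groups by their root level, cut after the values were seen. In 50 of the 83 the mean was at least 1 CPM in all 4 root groups, in 25 it was below 0.5 CPM in all 4, and 8 lay between. For the 25, 4 of which had 0 counts in the 12 root libraries, the added 0.5 CPM pulls the rule's root ratio towards 1. There "no change in root" says that the gene was hardly detected, not that a root level was held. A rise in counts could also pass the band. In Jack roots 15G006200 had 0, 1 and 0 counts untreated and 8, 2 and 6 with NaCl. In GmNFYA roots it had 6, 10 and 1 untreated and 8, 6 and 9 with NaCl, which overlap. These 25 had a median of 20.3 CPM in NaCl leaves and 0.0239 CPM in untreated roots. The 50 had medians of 3.99 CPM in untreated leaves, 18.5 CPM in NaCl leaves, 13.5 CPM in untreated roots and 16 CPM in NaCl roots. The median leaf ratio of the 50 was 3.67 in Jack and 4.45 in GmNFYA, and that of the 25 was 4.79 and 6.2.

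A low-count filter left 58 of the 83 members in the root test, all 50 above and the 8 between. Of these, 26 were called higher with NaCl in Jack roots (29% of all IDs tested) and 0 lower (27.9%), with 1 lower at an unadjusted p under 0.05, and 19 were called higher in GmNFYA roots (28.6%) and 2 lower (28.1%), while 12 were higher in both genotypes. The rule bounded these changes, so nothing is read from the counts. The bound was loose for members with few root counts: 17G033600 had 15 counts in untreated Jack roots and 40 with NaCl, and its pooled CPM with NaCl was 2.51 times the untreated one, where the rule's ratio with 0.5 CPM added was 1.49. The scaling bears on this: trimmed-mean (TMM) scaling put the NaCl change in root 0.17 higher on the log2 scale in Jack and 0.13 higher in GmNFYA than the column sums that the rule used. Under TMM-scaled CPM, 61 of the 83 members still met the rule.

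The rule compared no level between organs, which allowed a test of untreated roots against untreated leaves in 1 fit over all 24 libraries. In Jack, 35 of the 83 members were higher in root (36.2% of all IDs tested) and 39 were lower (33.7%). In GmNFYA, 36 were higher in root (36.7%) and 37 lower (34.2%). In both genotypes 34 were higher and 35 lower, and 0 were called in opposite directions by this test. All members higher in root were among the 50, of which 35 were called higher and 9 lower in Jack. The 50 were cut by their root level, so nothing is read from where these calls fell. The median log2 difference over the members was -0.10 in Jack and 0 in GmNFYA, against 0.04 and 0.03 over all IDs tested. Of the other 531 IDs meeting the leaf limit in both genotypes, 44.1% were higher in root and 23.9% lower in Jack. In GmNFYA these shares were 42% and 26.2%. The 25 members below 0.5 CPM in root passed the filter through their leaf libraries alone, which favoured a lower call in root in advance. It did not fix one for each, since 11G144900 had 0 counts in every untreated leaf and root library. The 25 made up 23 of the members called lower in each genotype, and nothing is read from those counts.

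Among the members higher in untreated root, 05G029200 had the largest difference in both genotypes. It was at 0.095, 0 and 0.584 CPM in untreated Jack leaves and at 15.3, 17.8 and 14.3 CPM in untreated Jack roots (log2 difference 5.70 ± 0.45 SE, edgeR adjusted p = 2.83e-10). In GmNFYA it was at 0.351, 0.17 and 0.454 CPM in leaves and at 27, 35.1 and 29.3 CPM in roots (log2 difference 6.17 ± 0.41 SE, adjusted p = 2.04e-11). With NaCl its leaf level came to 5.62 to 9.2 CPM in Jack and 9.67 to 19.7 CPM in GmNFYA, still below every root library of the same genotype.

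In Jack the next was 01G019200, at 8.41, 14.8 and 5.89 CPM in untreated leaves and 443, 442 and 340 CPM in untreated roots (log2 difference 5.06 ± 0.29 SE, adjusted p = 1.44e-12). Its leaf level with NaCl was 67.4, 110 and 89.2 CPM. In GmNFYA the next was 18G040700, at 0.502, 0.17 and 0.404 CPM in untreated leaves and 13.8, 14.1 and 15.9 CPM in untreated roots (log2 difference 4.97 ± 0.39 SE, adjusted p = 1.38e-10), and at 3.58 to 4.34 CPM in NaCl leaves. In all 3 genes the NaCl leaf libraries stayed below the untreated root libraries of the same genotype.

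The largest differences the other way belonged to members among these 25, whose values are given as a description. The first was 18G127200. It was at 31.3, 68.1 and 30.2 CPM in untreated Jack leaves and had 0 counts in untreated Jack roots, at least 809-fold lower against a floor of 3 counts over the group. In GmNFYA it was at 47.4, 61.5 and 49.9 CPM in untreated leaves against 3 counts in roots, a ratio of 1079 with an exact 95% counting interval of 369 to 5235. With NaCl its mean in leaves was 209 ± 37.7 CPM in Jack and 322 ± 66.2 CPM in GmNFYA (SD, n = 3), and its roots with NaCl had 5 and 3 counts.

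In Jack, 14G193000 followed, at 14.1, 12.1 and 12.8 CPM in untreated leaves and 0 counts in root, at least 249-fold lower. In GmNFYA, 19G202200 followed, at 7.68, 5.71 and 6.11 CPM in untreated leaves and 0 counts in root, at least 134-fold lower. Intervals and floors cover counting error only.

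**Figure D3:**
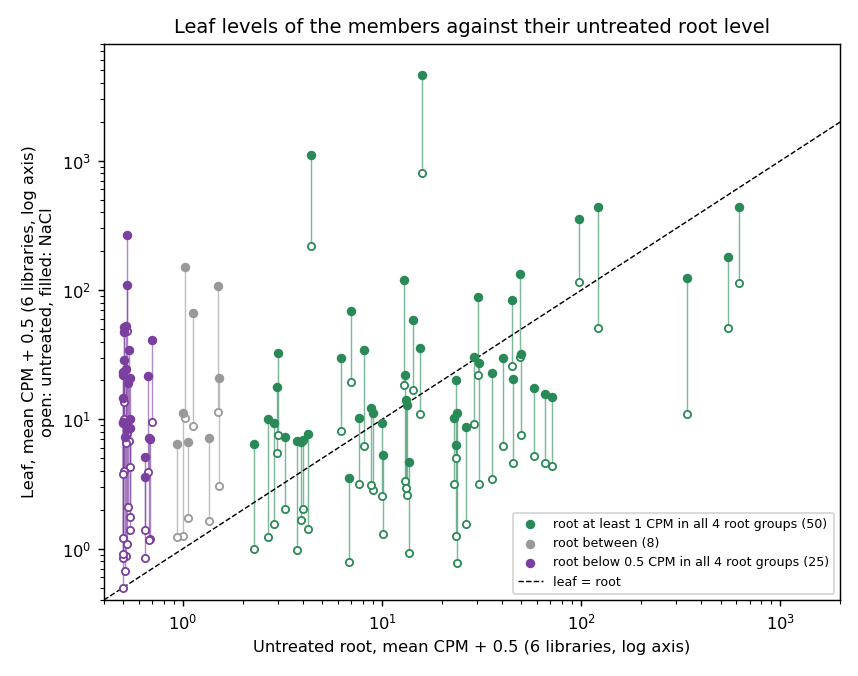
Mean CPM + 0.5 of each member in leaves (vertical log axis; open points untreated, filled points NaCl, joined by a line) against its mean CPM + 0.5 in untreated roots (horizontal log axis), each over the 6 libraries of both genotypes, coloured by root level. For 20 members the dashed line of equal levels passes between the open and the filled point, for 21 the filled point stays below it, and for 42 the open point is already on or above it.

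Set beside the leaf levels, the untreated root mean over both genotypes was at or below the untreated leaf mean for 42 members, between the untreated and the NaCl leaf mean for 20, and above the NaCl leaf mean for 21. For 12 of these 21, all 6 untreated root libraries lay above all 6 NaCl leaf libraries. The share of all IDs that do so was not computed, so nothing is read from the count. In a different comparison, untreated root lay above untreated leaf without overlap for 49.7% of all IDs tested in Jack and 51.8% in GmNFYA. For the members these shares were 47% and 49.4%. The member with the highest root level was 10G211000, at 561, 491 and 570 CPM in untreated Jack roots and 698, 741 and 669 CPM in untreated GmNFYA roots. Its leaf level was 172, 82.2 and 132 CPM in untreated Jack and 349, 503 and 368 CPM with NaCl. In GmNFYA leaves it was at 95.3, 95.2 and 95.8 CPM untreated and 470, 549 and 379 CPM with NaCl. The highest NaCl leaf library of Jack passed its lowest untreated root library, while in GmNFYA these groups did not overlap.

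The next highest in root, 18G041100, was at 573, 579 and 578 CPM in untreated Jack roots and 462, 450 and 450 CPM with NaCl. In Jack leaves it was at 49.1, 49.9 and 44.6 CPM untreated and at 156, 162 and 164 CPM with NaCl. In GmNFYA leaves it was at 54.2, 51.7 and 52.2 CPM untreated and at 201, 227 and 166 CPM with NaCl. The leaf and root libraries did not overlap in either genotype, whether treated or not.

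The rule did not compare the genotypes, and the second question was whether the members stood at different levels in GmNFYA and Jack. In NaCl leaves, 21 of the 83 members were higher in GmNFYA (3.65% of all IDs tested) and 0 were lower (5.95%; 9.61% in either direction), by edgeR's quasi-likelihood test at an adjusted p under 0.05. At an unadjusted p under 0.05, 42 were higher and 1 was lower, and DESeq2 called 26 higher and 0 lower (12.6% of all IDs tested in either direction). Shares of all IDs at the unadjusted threshold were not computed, here or below. The median log2 difference was 0.47 over the 83 members and -0.01 over all 35222 IDs, and 72 of the 83 were above 0, or 86.7%, against 49% of all IDs. The other 531 IDs with a leaf ratio of at least 3 in both genotypes had a median of 0.41, with 18.8% higher and 0.942% lower. Higher calls thus outnumbered lower ones also among the leaf-induced IDs outside the rule, and the difference between the 83 and the 531 was not tested. The 21 called differences ran from 0.30 to 1.93 on the log2 scale with a median of 0.99, and they fell on 13 of the 50 members expressed in root, 6 of the 25 below 0.5 CPM there and 2 of the 8 between.

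The count of 21 changed with the libraries left out, and so did the share of all IDs called, 9.61% in the full fit. It was 10 without GmNFYA NaCl replicate 1 (4.88% of all IDs tested) and 11 without replicate 2 (4.33%). Without replicate 3, which had the highest share of reads aligned to more than 1 place, it was 25 (6.5%). GmNFYA NaCl replicate 3 was also the lowest of its group for 47 of the 83 members. Jack NaCl replicate 1 was the lowest of its group for 41 of the 83. The summed member level of that Jack library was 6325 CPM, against 9705 and 9612 CPM in the other 2 libraries of its group. Without 06G295700, the most abundant member, these sums were 3372, 4374 and 4372 CPM. With Jack NaCl replicate 1 left out of the test, 15 members were higher and 1 was lower (9.38% of all IDs tested in either direction). The part of these libraries in the count beyond these values was not tested.

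The member with the largest called difference in NaCl leaves was 17G116500. It was at 5.16, 7.72 and 12.5 CPM in Jack and at 31.9, 30 and 39.7 CPM in GmNFYA (log2 difference 1.93 ± 0.29 SE, adjusted p = 0.00224). The same member was higher in untreated leaves, at 1.19, 1.23 and 2.19 CPM in Jack and 5.77, 4.41 and 5.86 CPM in GmNFYA (log2 difference 1.70 ± 0.36 SE, adjusted p = 0.0236). The libraries of the genotypes did not overlap in either condition. The call in NaCl leaves held under all 11 alternatives (adjusted p up to 0.02), and that in untreated leaves was lost with any 1 of 4 libraries left out (adjusted p up to 0.0928).

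Next came 18G129800, at 5.98, 16.5 and 4.34 CPM in NaCl leaves of Jack and 34.9, 40.9 and 27.2 CPM in those of GmNFYA (log2 difference 1.86 ± 0.46 SE, adjusted p = 0.0321). Untreated leaves had 0.341 to 0.64 CPM in Jack and 0 to 0.555 CPM in GmNFYA, and untreated roots had 0 counts in both genotypes. The groups did not overlap with NaCl and did overlap without it. The call was lost under 6 of 11 alternatives, 4 of them with 1 library left out (adjusted p from 0.00153 to 0.102 over the 11).

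In untreated leaves, 5 of the 83 members were higher in GmNFYA (2.3% of all IDs tested) and 0 were lower (2.21%; 4.51% in either direction), with 17 higher and 4 lower at an unadjusted p under 0.05. DESeq2 called 7 higher and 1 lower (8.13% of all IDs tested in either direction). The median log2 difference was 0.32 over the members, 0.21 over the other 531 leaf-induced IDs and -0.01 over all IDs. Of those 531, 5.08% were called higher and 2.26% lower. Besides 17G116500, the named member was 09G168600, at 1.9, 1.49 and 1.61 CPM in Jack and 4.27, 3.67 and 3.99 CPM in GmNFYA (log2 difference 1.16 ± 0.21 SE, adjusted p = 0.00876). With NaCl it came to 13.4, 17.6 and 20.3 CPM in Jack and 26.5, 29.1 and 21.2 CPM in GmNFYA, a log2 difference of 0.51 ± 0.16 SE that did not pass (adjusted p = 0.0643). Only 2 members were called in both leaf conditions. Of the 83, 23 had an untreated leaf mean below 1 CPM and 11 of them below 0.5 CPM, levels at which a call is hard to reach. The counts of 5 in untreated and 21 in NaCl leaves are therefore not set against each other. The count of 5 was 2 without untreated GmNFYA replicate 1 or 3 or Jack replicate 1. The share of all IDs called fell as well, from 4.51% to 1.45%, 1.54% and 2.16%.

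**Figure D4:**
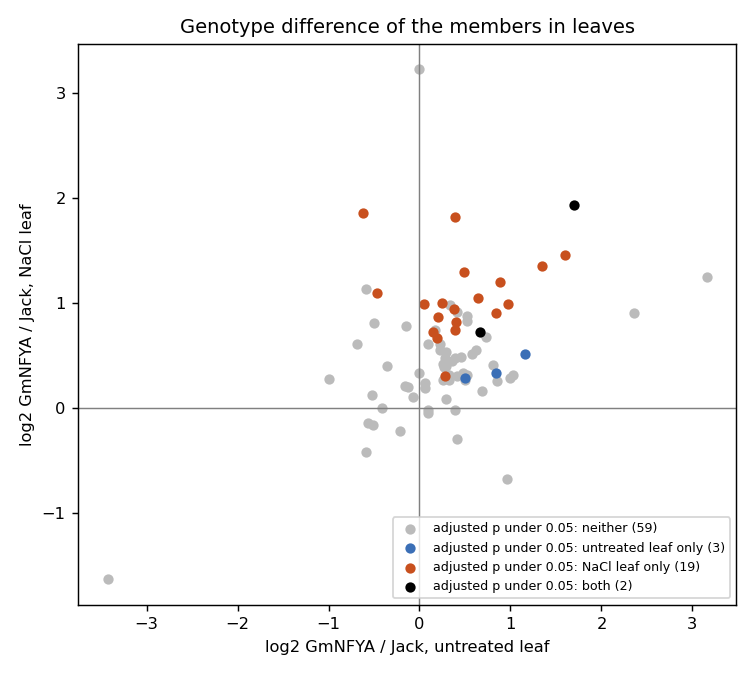
Log2 difference between GmNFYA and Jack in NaCl leaves (vertical) against that in untreated leaves (horizontal) for each of the 83 members, coloured by whether edgeR's adjusted p was under 0.05 in neither comparison (59), untreated leaves only (3), NaCl leaves only (19) or both (2). All coloured points lie above 0 on the vertical axis, and members with very few counts when untreated spread widely on the horizontal axis.

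The leaf ratio itself was larger in GmNFYA than in Jack for 58 of the 83 members, 69.9%, and for 65.5% of the other 531 leaf-induced IDs. The genotype by NaCl interaction in leaf, built from ratios that the rule used and given as a description, was called by edgeR for 0 of the 83 members (2.45% of all IDs tested), with 9 higher and 3 lower in GmNFYA at an unadjusted p under 0.05. DESeq2 was not run on it. In root the same interaction was called for 3 of the 58 members tested (8.29%).

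**Figure D5:**
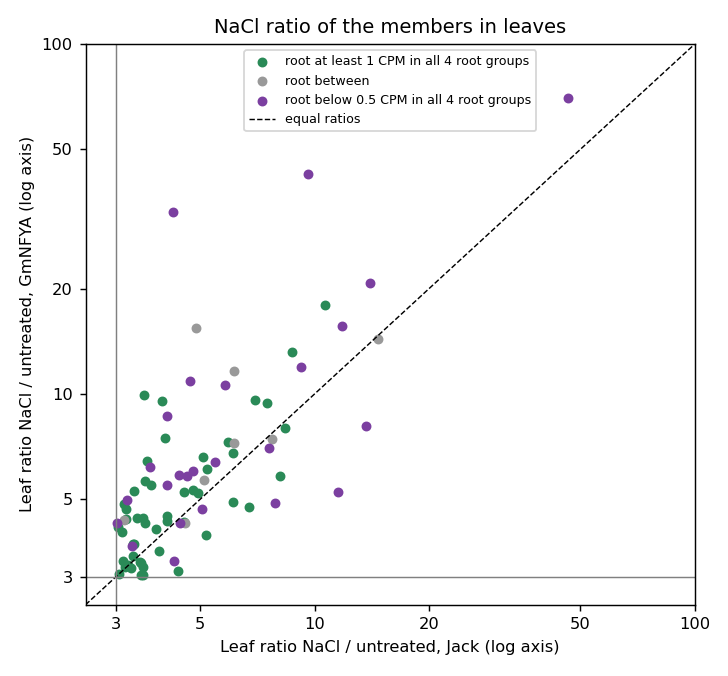
Ratio of the mean NaCl to the mean untreated CPM in leaves, with 0.5 CPM added to each mean, for GmNFYA (vertical log axis) against Jack (horizontal log axis), with each of the 83 members coloured by root level, the rule's limit of 3 as grey lines and equal ratios as a dashed line. The points spread around the dashed line with 58 above it, and the member at the upper right is 07G056800.

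In untreated roots, 14 of the 58 members tested were higher in GmNFYA (10.7% of all IDs tested) and 5 were lower (12.6%; 23.3% in either direction). The median log2 difference was 0.22, against 0.01 over all IDs tested and 0.04 over the 517 of the other 531 leaf-induced IDs that were tested there. The 58 are the members with enough root counts and not all 83. Called differences ran from 0.41 to 1.98 on the log2 scale for the higher members and from -0.69 to -0.25 for the lower ones. The count of 19 in all was 11 without GmNFYA replicate 1 or 2. The share of all IDs called fell as well, from 23.3% to 16% and 15.5%. The untreated Jack roots are the libraries with the largest share of reads aligned to more than 1 place, whose part in these differences was not tested.

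The largest difference belonged to 07G018800, at 0.109, 0.176 and 0.273 CPM in untreated Jack roots and 1, 1.03 and 0.418 CPM in untreated GmNFYA roots (log2 difference 1.98 ± 0.51 SE, adjusted p = 0.0101). The next was 17G033600, at 0.274, 0.353 and 0.182 CPM in Jack and 0.812, 0.978 and 0.783 CPM in GmNFYA (log2 difference 1.59 ± 0.48 SE, adjusted p = 0.0258), a call lost with any 1 of 4 libraries left out (adjusted p up to 0.0961). Both had few root counts, 11 and 15 over the 3 Jack libraries, and both were among the 7 members higher in GmNFYA in untreated roots and in NaCl leaves alike.

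At the other end, 01G019200 was at 443, 442 and 340 CPM in untreated Jack roots and 241, 249 and 316 CPM in untreated GmNFYA roots (log2 difference -0.69 ± 0.15 SE, adjusted p = 0.00442). With NaCl its roots came to 539, 470 and 374 CPM in Jack and 412, 352 and 441 CPM in GmNFYA, where the genotypes overlapped. The other was 08G129600, at 83.8, 79.6 and 85.5 CPM in Jack and 61.4, 56.6 and 57.4 CPM in GmNFYA (log2 difference -0.59 ± 0.08 SE, adjusted p = 0.000114). With NaCl it was at 77.6, 77 and 91.8 CPM in Jack and 88.5, 89.6 and 82.9 CPM in GmNFYA, again overlapping.

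In NaCl roots, 4 of the 58 members tested, or 6.9%, were higher in GmNFYA (7.05% of all IDs tested). Of the same 58, 1 was lower, or 1.72% (9.9% of all IDs tested, and 16.9% in either direction). The share of higher members was thus near the background, and that of lower members was under it. The count of 5 was 3 without GmNFYA replicate 2 (10.7% of all IDs tested), 2 without Jack replicate 2 (10.8%) and 9 without Jack replicate 3 (14.4%). Without GmNFYA replicate 3 it was 6 (10.8%), of which 4 were lower. The largest difference was that of 08G204500, at 0.639, 1.66 and 2.47 CPM in Jack and 3.14, 3.87 and 4.18 CPM in GmNFYA (log2 difference 1.12 ± 0.34 SE, adjusted p = 0.035), which was lost under 6 of 11 alternatives (adjusted p from 0.00753 to 0.106). Next was 16G189000, at 4.01, 5.88 and 5.34 CPM in Jack and 9.52, 9.82 and 11.9 CPM in GmNFYA (log2 difference 0.91 ± 0.22 SE, adjusted p = 0.0123; 0.0546 without GmNFYA replicate 3, and 0.00219 to 0.0546 over the 11 alternatives). Both genes were also higher in GmNFYA in NaCl leaves.

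The lower member in NaCl roots was 18G041100, at 462, 450 and 450 CPM in Jack and 409, 417 and 386 CPM in GmNFYA (log2 difference -0.30 ± 0.08 SE, adjusted p = 0.0182). This small difference was lost without GmNFYA replicate 3 or Jack replicate 2 (adjusted p from 8.98e-06 to 0.0761 over the 11 alternatives). TMM scaling lowered the comparison of GmNFYA with Jack in NaCl roots by 0.13 on the log2 scale against column sums.

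Whether the genotype difference itself differed between organs was tested in the fit over 24 libraries, a test added after the values were seen. Without NaCl it was called for 4 of the 83 members (8.92% of all IDs tested), and with NaCl for 6 (7.45%), all 6 with a lower genotype difference in root than in leaf, a direction called for 3.42% of all IDs tested, against 4.03% higher.

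Positions were read only from the IDs, whose leading digits give the chromosome and whose numbers follow gene order in the soybean naming system. The members were spread over all 20 chromosomes and 1 ID without a chromosome, most often on chromosome 8 with 10 of its 3719 IDs and chromosome 7 with 8 of 2769, and least often on chromosome 20 with 1 of 2536. Members lay within 3 listed IDs of each other in 2 places. In the first, 07G143900 and 07G144100 enclosed 07G144000, which went from 2.69 to 8.94 CPM in Jack leaves and from 3.41 to 15.7 CPM in GmNFYA leaves and missed the rule by its Jack ratio of 2.96.

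A further member, 07G143500, lay 4 listed IDs before them, so that 4 of the 7 IDs from 07G143500 to 07G144100 rose about 3-fold or more in leaves of both genotypes. In untreated and NaCl leaves of Jack, 07G143500 was at 0.522, 0.534 and 0.828 CPM and at 10.7, 5.15 and 8.33 CPM. The member 07G143900 was at 6.17, 5.98 and 7.26 CPM and at 44.3, 16.5 and 30.5 CPM in the same libraries. Jack NaCl replicate 2 was the lowest treated library for 07G143500, 07G143900 and 07G144100 alike. Mean root levels of all 4 IDs were below 1 CPM in every group. Reads shared by near-identical copies would count for none of them, and whether these IDs are such copies was not tested.

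In the other place, 14G192800 and 14G193000 enclosed 14G192900, which was at 9.77 and 9.86 CPM in untreated and NaCl Jack leaves. The members on either side differed in root. The mean of 14G192800 was 7.95 CPM in untreated Jack roots, above its 2.47 CPM in NaCl Jack leaves, and that of 14G193000 was 0. These neighbours therefore shared the leaf rise but not the root level, and the gene between them shared neither the rise nor the absence from root.

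The limits of the rule cut through a continuous range. Just inside the leaf limit were 19G202200 and 16G189000, with Jack ratios of 3.02 and 3.04, and just outside were 08G254200 and 13G220900, with Jack ratios of 2.99 and 2.96. At the root band, 01G019200 was just inside with a GmNFYA root ratio of 1.49 and 17G033600 with a Jack root ratio of 1.49. For 17G033600 the ratio of pooled CPM, a different measure with no 0.5 CPM added, was 2.51. Just outside were 07G155200 and 10G190900, with ratios of 0.659 in GmNFYA and 1.53 in Jack. With each of the 24 libraries left out in turn, 76 to 94 IDs met the rule, and 50 of the 83 members met it every time.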

How the data were processed

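The authors deposited 1 table of raw read counts per gene ID for the 12 leaf and 1 for the 12 root libraries. The submitters' processing notes name HISAT2, featureCounts and DESeq2 without role or version, while the rows of unassigned reads have the form htseq-count writes; no source used here states the genome build or strand setting. Those rows stayed out, so that 70.8 to 81.2% of counted reads entered. Of the 57105 IDs, 0 matched the RefSeq gene table (assembly Glycine_max_v4.0), so no sequence is shown.

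CPM was computed on column sums. Tests used edgeR 4.0.16 in R 4.3.3 (filterByExpr with a minimum count of 10, TMM, robust quasi-likelihood F test, Benjamini-Hochberg over all IDs tested), per organ over 4 groups (35222 IDs in leaf, 36390 in root) and over all 24 libraries between organs (39003 IDs), with DESeq2 1.42.0 as an alternative. The SE is the log2 change over the square root of F. The scripts were tested on simulated counts. No pair of libraries within a group agreed within sampling noise.

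Named members had the highest NaCl leaf level, largest common leaf ratio or highest untreated root level (2 each), or were up to 2 per direction among called members without overlap in each comparison, the longest run of neighbours, and those nearest the limits; the second run and 07G143500 were added after their values were seen. The members and lists were chosen with earlier results of these data known.

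Replicate numbers carry no stated meaning. Deviations of same-numbered NaCl leaf libraries of the genotypes correlated at 0.117 to 0.256. The criterion for pairing, that all 3 such correlations pass 0.1, was met there. It comes from the data and not the labels. With the replicate block 22 members were called there (10.6% of all IDs tested), 19 of them among the 21.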

Additional observations from a re-analysis of the deposited data

Results flagged for a closer look

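For 2 named members the difference between GmNFYA and Jack itself differed between organs in the fit over 24 libraries (edgeR's quasi-likelihood test of the interaction). The genotype difference of 09G168600 without NaCl was 0.91 lower in root than in leaf on the log2 scale (value -0.91 ± 0.24 SE, adjusted p = 0.0204); it was 1.16 in leaf and 0.23 in root. The genotype difference of 18G041100 with NaCl was lower in root than in leaf (log2 value -0.50 ± 0.13 SE, adjusted p = 0.0228); it was 0.23 in leaf, where it did not pass (adjusted p = 0.214), and -0.30 in root. Over all 83 members the test called 4 without NaCl (8.92% of all IDs tested) and 6 with NaCl (7.45%). These 6 had a lower genotype difference in root, a direction called for 3.42% of all IDs tested, against 4.03% higher.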

How the results depend on the processing

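The rule gave 314 IDs with a leaf limit of 2 and 46 with 4, 45 with a narrower and 156 with a wider root band, and 50 with at least 1 CPM in all 4 root groups. It gave 91 and 76 with pseudocounts of 0.25 and 1 CPM and 62 under TMM or RLE scaling. With a library left out it gave 76 to 94. Members called between genotypes in untreated leaves were 8 with DESeq2 (8.13% of all IDs tested), 3 when the fit held no other groups (3.58%) and 2 to 6 with a library left out (1.45 to 4.95%). With a library left out they were 10 to 25 in NaCl leaves (4.33 to 9.38%), 11 to 19 in untreated roots (15.5 to 23.7%) and 2 to 9 in NaCl roots (10.6 to 17.1%). Between untreated organs, with a library left out, 71 to 74 were called in Jack (65.8 to 68% of all IDs tested) and 70 to 72 in GmNFYA (67.6 to 68.5%). The other alternatives moved these counts by no more than 1.5 times. Of 209 values of named members under the alternatives, 186 stayed past the threshold and 0 changed sign. The other 23 did not stay past it, 20 of them with a library left out. All 23 were differences between GmNFYA and Jack, while every value between untreated organs stayed past the threshold. Some values between organs came from members below 0.5 CPM in root, for which a lower call in root was favoured in advance. The 186 therefore do not measure how well the genotype calls held. With the replicate number as a block, 5, 22, 15 and 5 members were called between genotypes in untreated leaves, NaCl leaves, untreated roots and NaCl roots, and 74 and 73 between organs in Jack and GmNFYA. The shares of all IDs called were 5.61%, 10.6%, 21.2% and 15%, and 69.7% and 70.8%, in the same order. Outside NaCl leaves no compared pair of groups met the criterion for pairing, that all 3 correlations of same-numbered deviations pass 0.1. These correlations ran from -0.249 to 0.15, and some single ones passed 0.1. As a hint from the data, samples that correlated best with their own number were 5 of 6 between the genotypes in untreated leaves, 0 of 6 in each root comparison of the genotypes, and 5 of 6 and 4 of 6 between untreated organs in Jack and GmNFYA. Depth limits the 25 members below 0.5 CPM in root, which did not pass the low-count filter of the root test. A root change in them was mostly beyond reach, but not in all. In Jack roots 19G202200 had 2 counts untreated and 12 with NaCl, a ratio of 5.65 with an exact 95% counting interval of 1.26 to 52. In GmNFYA roots it had 0 and 3 counts.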
